A study of Mus musculus with 6 samples.

Results

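The genes described here encode proteins of the U1 small nuclear ribonucleoprotein (U1 snRNP) and factors that work beside it at the 5′ splice site. The 9 members, chosen by symbol from a list proposed with results of these data in view, were Snrnp70, Snrpa, Snrpc, Luc7l, Luc7l2, Luc7l3, Prpf39, Tia1 and Tial1. Each matched 1 Ensembl gene among the 52550 genes of the count table, and together they held 69 of the 40961 splicing events listed. Because the choice was made on the same libraries, differences between the groups are given as a description, and the calls below place the members among all genes and events without testing the choice.

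Hippocampal RNA was compared between 3 libraries of control mice and 3 of mice labelled L-DL KD, which are called KD-labelled below. L-DL is the long isoform of hnRNP D-like, an RNA-binding protein encoded by Hnrnpdl. All mice were male C57BL/6 J animals injected at 8 weeks of age in the CA1 area on both sides with adeno-associated virus. The controls received control shRNA and the other group received 4 tandem shRNAs against L-DL under the H1 promoter, and the control virus had the higher titre. The virus also carried zsGreen under the CaMKIIα promoter, a promoter of excitatory neurons, whereas whole hippocampus was sequenced. The labels call the controls wild type and name the other group a knockdown in one field and a deletion in another, and the study describes a knockdown. Hnrnpdl itself stood at 176, 183 and 170 CPM (reads scaled to the TMM-adjusted size of each library) in the controls and at 217, 150 and 173 CPM in the KD-labelled libraries. These groups overlapped, and gene counts do not part the long isoform from the others. The label could thus not be checked by RNA level and is kept as a label. The paper measured L-DL protein in injected hippocampus by immunoblot and describes reduced L-DL in the knockdown mice.

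U1 snRNP binds the 5′ splice site of an intron by pairing of the U1 RNA with the last bases of the exon and the first bases of the intron. Snrnp70 (U1-70K), Snrpa and Snrpc are the proteins specific to this particle. The LUC7-like proteins and Prpf39 associate with U1 snRNP and affect which 5′ splice sites are used, and Tia1 and Tial1 bind U-rich RNA just downstream of weak 5′ splice sites and help to recruit U1. Many genes of splicing factors also carry exons or retained introns that shift or end the reading frame, and such transcripts are often degraded by nonsense-mediated decay.

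The largest differences among the members lay in segments of this kind, and the sequences of 4 alternative exons are shown because the inclusion values below turn on them. They were read from GENCODE transcripts of GRCm38, the build to which the authors aligned. The first pair are exons of 71 bases that lie just before the exon of 95 bases in the paralogs Luc7l (chr17:26253974-26254044, plus strand) and Luc7l2 (chr6:38568847-38568917, plus strand), and capitals mark positions identical between them. They share 60 of 71 bases (84.5%) without a gap.
Luc7l 71-base exon: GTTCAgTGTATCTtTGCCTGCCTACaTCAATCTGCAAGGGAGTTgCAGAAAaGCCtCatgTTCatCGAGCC
Luc7l2 71-base exon: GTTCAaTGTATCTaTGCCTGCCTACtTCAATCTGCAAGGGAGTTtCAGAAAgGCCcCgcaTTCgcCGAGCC
The exon of 60 bases in Snrnp70 (chr7:45383125-45383184, minus strand) is annotated in a nonsense-mediated decay transcript, and capitals mark the stop codon of that transcript's reading frame.
Snrnp70 60-base exon: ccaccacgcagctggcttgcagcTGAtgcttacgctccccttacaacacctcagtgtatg
The exon of 33 bases in Tia1 (chr6:86419101-86419133, plus strand) keeps the reading frame and is part of 2 protein-coding transcripts.
Tia1 33-base exon: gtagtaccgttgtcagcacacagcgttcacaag

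The 5′ splice sites of these exons are shown because they are the letters that U1 reads. Each holds the last 3 bases of the exon and the first 6 of the intron, and capitals mark letters equal to CAGGTAAGT, the complement of the 5′ end of U1.
Luc7l first exon (chr17:26253089-26253097): acGGTgAGT
Luc7l 71-base exon (chr17:26254042-26254050): gccGTgAGT
Luc7l long first exon (chr17:26254386-26254394): tgGGTAcag
Luc7l2 71-base exon (chr6:38568915-38568923): gccGTgAGT
Snrnp70 60-base exon (chr7:45383119-45383127): atGGTtgGT
Snrnp70 1360-base exon (chr7:45381819-45381827): tcGGTAAaT
Tia1 exon before the 33-base exon (chr6:86418930-86418938): gcaGTAAGT
Tia1 33-base exon (chr6:86419131-86419139): aAGGTAAtT
The sites of both 71-base exons are identical, with 5 of 9 letters equal to the complement. The first exon of Luc7l had 6 equal letters and the late site that ends its long first exon had 4. Both Snrnp70 sites had 5 and 6 equal letters, and the Tia1 sites 6 and 7. These letters are a description of the sites and were not compared with 5′ splice sites in general.

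At the level of whole genes, Snrpc and Snrnp70 were higher in the KD-labelled libraries, and no member was called lower. After TMM scaling, edgeR's quasi-likelihood fit over 17621 genes, adjusted by Benjamini-Hochberg, called 30.5% of them at an adjusted p under 0.05, 15.6% higher and 15.0% lower. All 9 members passed the filter on low counts, and 2 of 9 were called, both higher. CPM of the groups did not overlap for 4 of 9 members, against 47.2% of all genes tested. The median log2 fold change of the members was 0.08, against 0.01 over all genes tested.

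**Figure D1:**
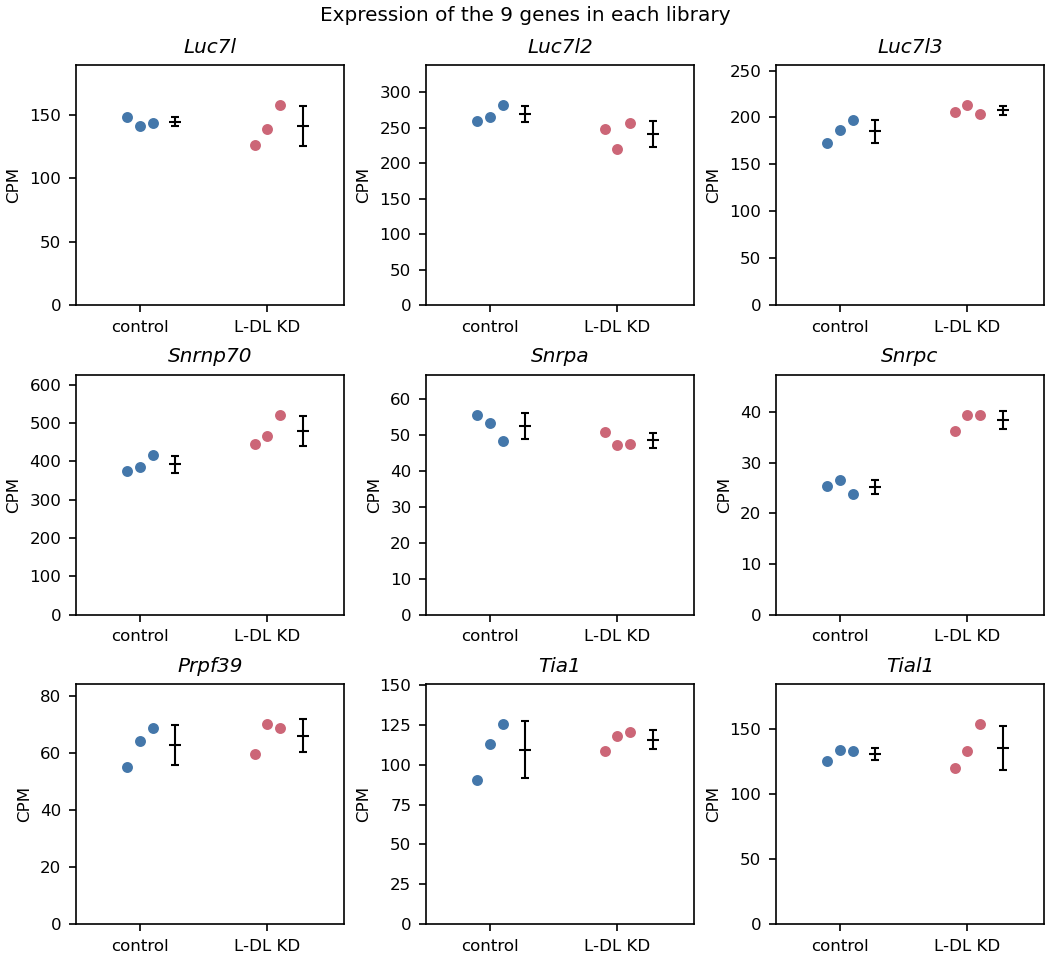
CPM of each of the 9 genes (vertical axis, from 0) in the 3 control libraries (blue) and the 3 KD-labelled libraries (red), with the mean and SD of each group in black. Snrpc and Snrnp70 lie apart with the KD-labelled libraries higher, Luc7l3 lies apart by less, Luc7l2 lies apart with the control libraries higher, and the other 5 genes overlap.

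Among the proteins specific to U1, Snrpc, which stabilises the pairing of U1 with the 5′ splice site, had 25.4, 26.5 and 23.8 CPM in the control libraries and 36.3, 39.4 and 39.4 CPM in the KD-labelled libraries. Every KD-labelled library was above every control library. The fold change was 1.52 (log2 fold change 0.60, SE 0.088, edgeR adjusted p = 0.00194), and it was called in each of the 6 fits that left out 1 library. Snrpc shares 10.3% of the 60-base windows of its coding transcripts with 4 pseudogenes, of which the one with most counts, Gm2991, had 4 to 10 counts per control library and 10 to 14 per KD-labelled library.

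Snrnp70, the protein that holds stem loop I of the U1 RNA and contacts regulators of splicing, had 375, 385 and 418 CPM in the control libraries and 447, 466 and 522 CPM in the KD-labelled libraries. These groups lay apart, by 418 against 447 CPM where they came nearest. The fold change was 1.22 (log2 fold change 0.28, SE 0.082, edgeR adjusted p = 0.0318). The call was lost without control replicate 1 (adjusted p = 0.123), 2 (0.110) or 3 (0.0511) and without L-DL KD replicate 2 (0.0596) or 3 (0.0656), so only the fit without L-DL KD replicate 1 kept it.

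Snrpa, which binds stem loop II of the U1 RNA, had 55.6, 53.5 and 48.4 CPM in the control libraries and 50.9, 47.2 and 47.5 CPM in the KD-labelled libraries. The groups overlapped, with a log2 fold change of −0.11 (SE 0.080, edgeR adjusted p = 0.323). Its exons share 327 bases with BC024978 on the other strand, and 13.5% of its 60-base windows occur in 6 pseudogenes.

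None of the 3 LUC7-like genes was called. Luc7l had 148, 141 and 143 CPM in the control libraries and 126, 139 and 157 CPM in the KD-labelled libraries, a log2 fold change of −0.04 (SE 0.088). The latter spread wider than the controls and surrounded them. Luc7l2 had 260, 265 and 282 CPM in the controls and 248, 221 and 256 CPM in the other group, a log2 fold change of −0.16 (SE 0.077, edgeR adjusted p = 0.165). Luc7l3 had 172, 187 and 197 CPM in the controls and 205, 213 and 204 CPM in the other group, a log2 fold change of 0.16 (SE 0.070, edgeR adjusted p = 0.117). Both genes lay apart by a narrow margin, Luc7l2 below and Luc7l3 above the controls.

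The remaining factors overlapped between the groups. Prpf39 ranged from 55.1 to 68.7 CPM in the control libraries and from 59.5 to 70.1 CPM in the KD-labelled libraries. Tia1 ranged from 90.3 to 125 CPM and from 109 to 121 CPM, and Tial1 from 126 to 134 CPM and from 120 to 153 CPM. Their log2 fold changes were 0.08 (SE 0.103), 0.08 (SE 0.117) and 0.05 (SE 0.095), and their edgeR adjusted p-values ranged from 0.619 to 0.719. Prpf39 shares 599 exon bases with Fkbp3 on the other strand, and whether counting used strand is not given in the sources used here.

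Levels between the members were compared as CPM per kilobase of all annotated exons, a length that includes retained introns. In the control libraries Snrnp70 had the highest level, 51.6 ± 2.92 CPM per kilobase (SD, n = 3), followed by Luc7l3 with 25.5 ± 1.70 and Luc7l2 with 22.3 ± 0.939. Luc7l with 19.2 ± 0.483, Tial1 with 18.9 ± 0.650 and Snrpa with 17.7 ± 1.24 followed, and each of these neighbours overlapped the next over the control libraries. Tia1 with 6.95 ± 1.13 and Prpf39 with 5.24 ± 0.580 also overlapped, and Snrpc had the lowest level, 3.87 ± 0.208 CPM per kilobase. All other neighbours in this order did not overlap. The order holds for this length only. It was 6521 bases for Snrpc and 11967 for Prpf39, whose protein-coding transcripts held 1493 and 4203 different 60-base windows. By the length of coding transcripts the order may differ.

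Markers of cell types moved between the same libraries, and in bulk RNA fewer cells of a type cannot be told apart from less RNA per cell. All 12 microglial markers were called higher, with summed levels of 1437 to 1796 CPM in the control libraries and 3013 to 3925 CPM in the KD-labelled libraries. Of 12 neuronal markers 11 were called lower, with sums of 10297 to 10805 CPM and 6025 to 7231 CPM. Of 10 astrocyte markers 2 were called higher and 4 lower (8032 to 8172 CPM and 6272 to 7412 CPM). Of 10 oligodendrocyte markers 3 were called higher and none lower (8107 to 8671 CPM and 7074 to 10331 CPM), and of 6 endothelial markers 4 were called higher and none lower (205 to 226 CPM and 270 to 318 CPM). The 6 markers of hippocampal neurons had counts in every library, with 1 called higher and 2 lower (845 to 858 CPM and 809 to 1161 CPM). No marker of these lists was at 0 in any library. The part of these shifts in the levels and inclusion values of the members was not tested.

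Over the 6 libraries, the protein-coding genes whose log2 CPM followed Snrpc most closely were Inpp5d, Csf1r and Slc44a2, with Pearson r between 0.998 and 0.999. Csf1r is one of the microglial markers above. For Snrnp70 they were Cad, Clu and Elf2 (r 0.997 to 0.999), and for Luc7l they were Zrsr2, Cyb561d1 and Noct (r 0.982 to 0.984). For Luc7l3 the genes were Rbpms, Prpf8 and Il1rap (r 0.973 to 0.990), and for Luc7l2 Manea, Gm4924 and Ndufab1 (r 0.975 to 0.979). For Snrpa they were Mreg, Gas2 and Mier2 (r 0.983 to 0.991), for Prpf39 Arv1, Plekhh2 and Napepld (r 0.980 to 0.982), for Tia1 Usp16, Prim1 and Smc6 (r 0.980 to 0.987) and for Tial1 Nup98, Ptpn12 and Haus8 (r 0.982 to 0.989). These are the highest of 12237 genes over 6 points that share 2 groups, and serve as a description.

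Inclusion of alternative segments was described as PSI, the share of the form that includes the segment, from junction counts divided by the effective length of each form. Inclusion counts were 1 number per library and event, not split by splice or boundary. Of the 69 events of the members, 45 were skipped exons, 9 retained introns, 7 alternative 3′ splice sites, 6 alternative 5′ splice sites and 2 pairs of mutually exclusive exons. Of these, 47 averaged 20 or more counts a library, with 1 or more of each form, and were tested by edgeR. The 22 others included both Snrpa events and the single Snrpc event, whose mean PSI was below 0.001 or above 0.999, so almost all of their reads fell on 1 form. Which columns of the splicing table belong to which group was read from the study's definition of a PSI difference, and that table gives no replicate numbers.

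Among the 47 tested events, 2 were called, both in Luc7l and both with higher PSI, against 0.255% of the 18829 events tested. PSI of the groups did not overlap in 15 of 47 events, against 18.4% of all tested events. In 11 of these PSI was higher in the KD-labelled libraries, against 7.61% of all tested events, and in 4 it was lower. These events are not independent, since events of 1 gene share reads. By size, the median change of PSI was 0.041 in the members' events and 0.030 over all tested events.

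**Figure D2:**
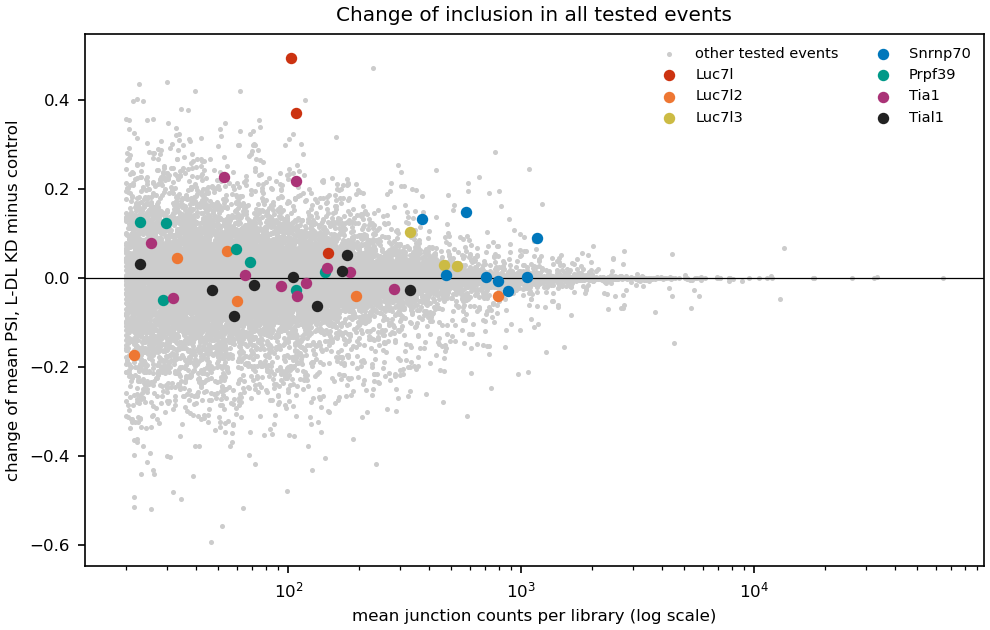
Change of mean PSI (KD-labelled libraries minus control, vertical axis) against mean junction counts per library (horizontal axis, log scale) for all 18829 tested events (grey) and the 47 tested events of the members (coloured by gene). Both Luc7l events near 0.494 and 0.370 stand at the upper edge of the cloud, and 3 Snrnp70 events with 374 to 1163 counts lie above most events of like depth.

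PSI of the 71-base exon event of Luc7l, which counts reads on either junction of the exon, was far higher in the KD-labelled libraries. It was 0.144, 0.148 and 0.022 in the control libraries and 0.620, 0.593 and 0.584 in the KD-labelled libraries. The splice out of the exon, given below, overlapped between the groups. The lowest KD-labelled library thus stood well above the highest control. Mean PSI rose from 0.105 ± 0.072 to 0.599 ± 0.019 (SD, n = 3 each), a change of 0.494 and rank 7 by size among 18829 tested events (edgeR adjusted p = 0.0377). The other called event of Luc7l was listed as a late 5′ splice site. It lengthens the first exon by 1297 bases (chr17:26253092-26254388) and takes in the 71-base exon. Its PSI was 0.110, 0.192 and 0.100 in the control libraries and 0.528, 0.536 and 0.450 in the KD-labelled libraries, a change of 0.370 and rank 41 by size (edgeR adjusted p = 0.0377). Its inclusion counts do not part the splice from the late site from reads that run past the early site into the intron.

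Both calls rested on the same reads for the skipping form and on all 6 libraries. With any 1 library left out, adjusted p ranged from 0.0519 to 0.108 for the 71-base exon and from 0.0636 to 0.211 for the late 5′ splice site, while the PSI changes stayed between 0.453 and 0.516 and between 0.354 and 0.400. With limma on the log2 ratio of the forms the adjusted p-values were 0.158 and 0.147, and limma called none of the 18829 events.

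**Figure D3:**
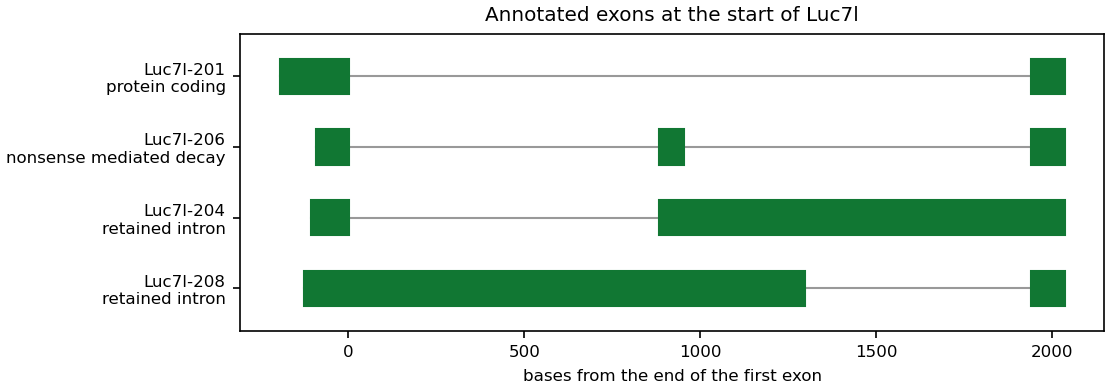
Annotated exons (green boxes) at the start of 4 Luc7l transcripts, placed by bases from the end of the first exon (horizontal axis). The protein-coding transcript joins the first exon to the exon at 1940 bases, and the nonsense-mediated decay transcript adds the 71-base exon at 883 to 953 bases. Of the 2 retained intron transcripts, Luc7l-208 reads through sequence on either side of it and Luc7l-204 only through the sequence after it.

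The counts behind these values showed a shift at the first intron of Luc7l while the gene's total did not differ beyond its spread. The splice from the first exon to the exon of 95 bases, which 3 transcripts of Luc7l carry, all annotated as protein-coding, was counted 85, 86 and 121 times in the controls against 25, 29 and 33 times in the KD-labelled libraries. As junction CPM, the count scaled to all junction counts of the library, this was 14.1 ± 3.31 in the controls and 3.81 ± 0.736 in the other group (SD, n = 3 each). Inclusion counts of the 71-base exon were 21, 22 and 4 in the control libraries and 60, 62 and 68 in the others, or 2.23 ± 1.42 and 8.31 ± 1.04 junction CPM. So the skipping splice was lower and the inclusion count higher in every KD-labelled library than in any control.

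The splice that leaves the 71-base exon for the exon of 95 bases was rare in both groups. It was counted 5, 13 and 3 times in the controls and 12, 8 and 12 times in the KD-labelled libraries, which overlapped. Reads over the boundaries of the intron between these exons numbered 81, 64 and 77 in the controls and 142, 234 and 237 in the other group, or 10.7 ± 1.43 and 26.9 ± 7.90 junction CPM. The retained share of this intron was already high, with PSI of 0.890, 0.711 and 0.928 in the controls and 0.855, 0.936 and 0.908 in the other group, and did not separate the groups. Inclusion of the long first exon had 21, 41 and 27 counts in the controls and 56, 67 and 54 in the others. Inclusion counts of the 71-base exon pool the reads of both its junctions. The splice out of the exon made up 12, 8 and 12 of the 60, 62 and 68 inclusion counts in the KD-labelled libraries. In the controls it made up 5, 13 and 3 of 21, 22 and 4. Most of the higher inclusion counts thus lay on the splice into the exon. A longer exon that starts at the same 3′ splice site shares that splice, so the PSI is not the share of a whole 71-base cassette exon.

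**Figure D4:**
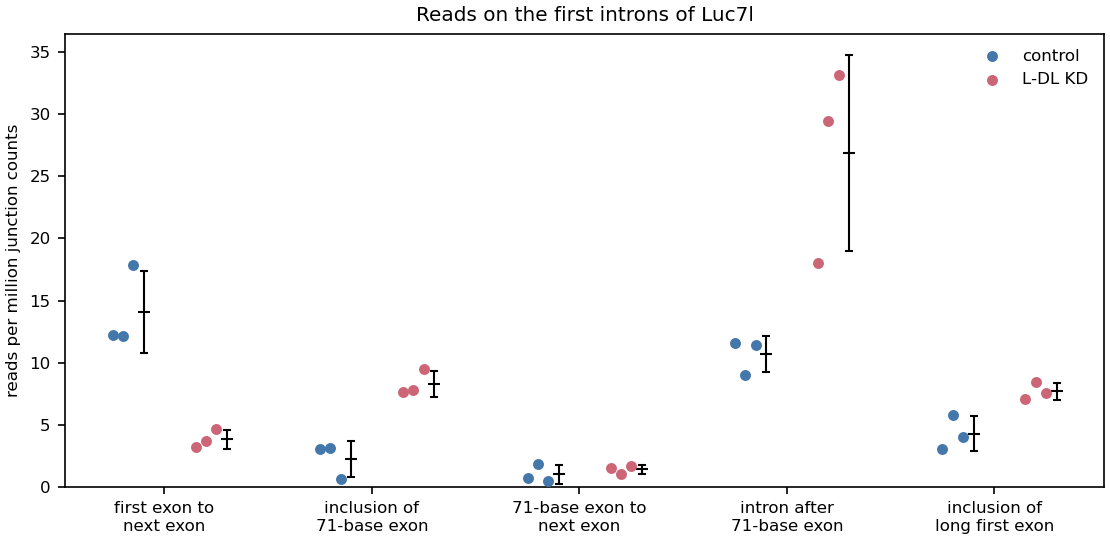
Junction CPM (vertical axis, from 0) for 5 kinds of read at the start of Luc7l in control libraries (blue) and KD-labelled libraries (red), with mean and SD in black. The splice that skips the 71-base exon has a mean of 14.1 in the controls and 3.81 in the others. Inclusion counts of the exon and reads over the following intron are higher, and the splice out of the exon overlaps between groups.

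The like exon in Luc7l2 gave no such separation. Its PSI was 0.082, 0.085 and 0.077 in the control libraries and 0.254, 0.044 and 0.126 in the KD-labelled libraries, from 5 to 6 and from 5 to 20 inclusion counts per library. Only 1 KD-labelled library stood far above the controls, and another was below them. This exon is annotated in 3 nonsense-mediated decay transcripts and 1 processed transcript of Luc7l2. The deepest alternative event of Luc7l2, with a mean of 797 counts per library, was an exon of 30 bases (chr6:38598785-38598814) found in 2 protein-coding transcripts. Its PSI was 0.503, 0.560 and 0.525 in the controls and 0.434, 0.515 and 0.517 in the other group, which overlapped.

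Snrnp70 carried 3 of the 8 events with the largest separated changes, all at one intron. The 60-base exon with the stop codon shown above had PSI of 0.283, 0.236 and 0.301 in the control libraries and 0.439, 0.367 and 0.410 in the KD-labelled libraries, a change of 0.132 (edgeR adjusted p = 0.240). A longer form of 1360 bases that starts at the same 3′ splice site (chr7:45381825-45383184) had PSI of 0.379, 0.313 and 0.424 in the controls and 0.571, 0.470 and 0.519 in the other group, a change of 0.148 (edgeR adjusted p = 0.218). The early 3′ splice site itself, which extends the next exon by 2366 bases (chr7:45380819-45383184), was the deepest, with a mean of 1163 counts per library, and its PSI was 0.641, 0.603 and 0.664 in the controls and 0.763, 0.682 and 0.731 in the other group. None of the 3 passed the test, although the groups lay apart in each.

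These 3 events share the reads of 1 skipping splice, counted 201, 251 and 213 times in the controls and 173, 236 and 226 times in the KD-labelled libraries. It stood at 31.9 ± 3.31 and 27.7 ± 5.13 junction CPM, which overlapped. Inclusion counts of the 60-base exon were 16.7 ± 1.97 and 26.2 ± 3.82 junction CPM, and those of the 1360-base form 38.0 ± 7.49 and 59.8 ± 7.74 junction CPM (SD, n = 3 each). In Snrnp70 the inclusion side was thus higher with an overlapping skipping side, whereas in Luc7l the skipping side was lower as well. The gene count of Snrnp70, 1.22-fold higher, includes the reads of these forms, since the longer ones are annotated exons of retained intron transcripts.

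An exon of 80 bases near the start of Snrnp70 (chr7:45395093-45395172) had lower inclusion in this group, with PSI of 0.096, 0.072 and 0.064 in the control libraries and 0.054, 0.046 and 0.047 in the KD-labelled libraries. It is annotated in 1 protein-coding and 1 nonsense-mediated decay transcript. The gap between the groups was small against the spread of the controls.

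In Tia1, an exon of 33 bases and the intron around it separated the groups without passing the test. The exon had PSI of 0.372, 0.507 and 0.345 in the control libraries and 0.662, 0.570 and 0.673 in the KD-labelled libraries, a change of 0.227 (edgeR adjusted p = 0.353). The 1391-base stretch around it (chr6:86418933-86420323), listed as a retained intron, had PSI of 0.462, 0.628 and 0.506 in the controls. The other group had 0.714, 0.739 and 0.794, a change of 0.217 (edgeR adjusted p = 0.243). Whether all of the stretch was kept was not shown by these counts. Both events use 1 set of skipping counts, 32, 16 and 39 in the controls and 16, 23 and 14 in the others, which overlapped. The deepest alternative event of Tia1 between the PSI bounds of 0.05 and 0.95, a late 5′ splice site adding 133 bases, had PSI of 0.347, 0.423 and 0.411 and of 0.403, 0.466 and 0.356, also overlapping.

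In Luc7l3, an intron of 105 bases (chr11:94293033-94293137) had PSI for retention of 0.573, 0.568 and 0.629 in the control libraries and 0.686, 0.746 and 0.648 in the KD-labelled libraries, a change of 0.103 (edgeR adjusted p = 0.390). This length is a multiple of 3, and the intron lies inside an exon of the protein-coding transcript Luc7l3-202. The exon of 141 bases next to it was nearly always included, with PSI of 0.949, 0.978 and 0.975 in the controls and 0.991 or more in the others. Its skipping counts were 12, 5 and 6 and then 1, 0 and 2, so this gap rests on few reads.

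**Figure D5:**
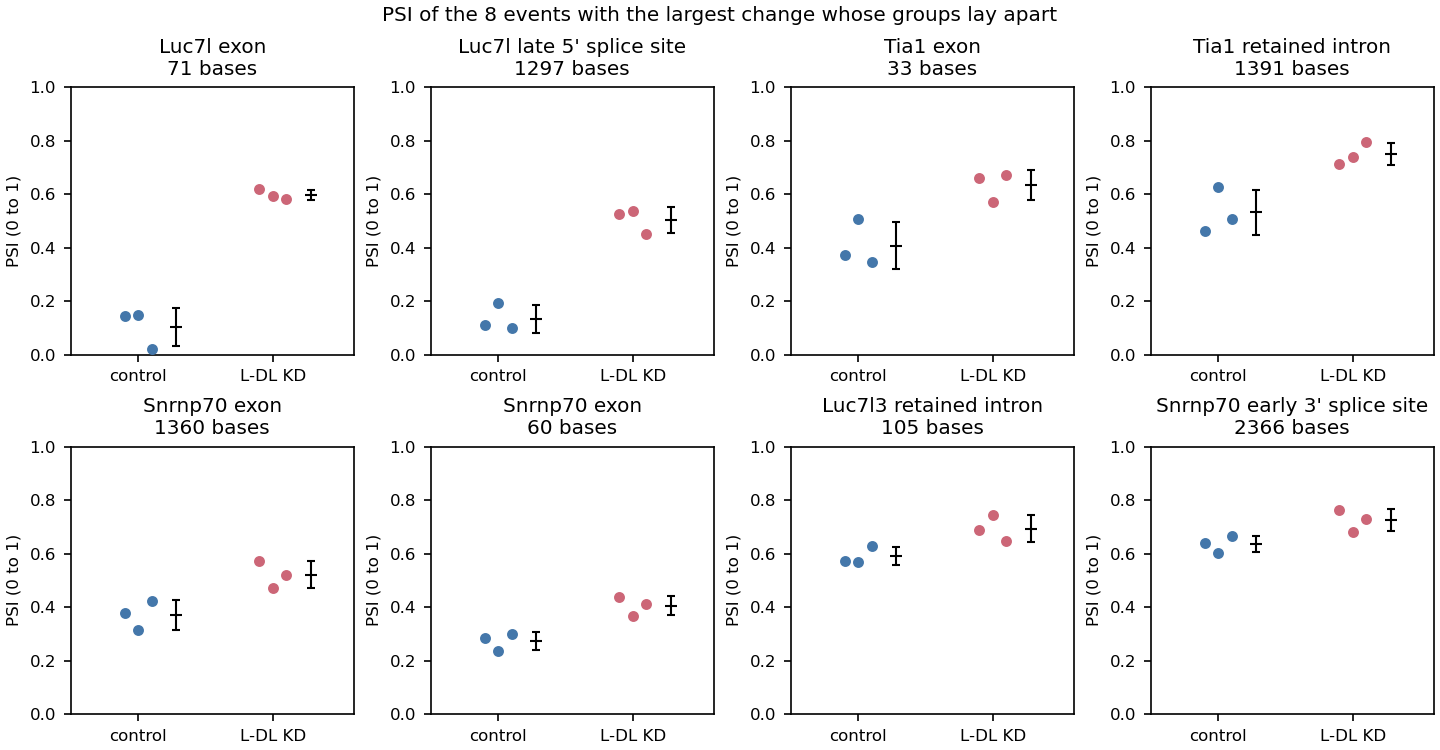
PSI (vertical axis, 0 to 1) of the 8 events of the members with the largest change of mean PSI whose groups lay apart, in control libraries (blue) and KD-labelled libraries (red), with mean and SD in black. All 8 are higher in the KD-labelled libraries, from a change of 0.494 in the 71-base exon of Luc7l to 0.089 at the early 3′ splice site of Snrnp70.

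All 8 of these events were higher in the KD-labelled libraries. By annotation, 6 of the 8 segments occur as or inside exons only of nonsense-mediated decay or retained intron transcripts, namely both in Luc7l, all 3 in Snrnp70 and the retained stretch of Tia1. The Tia1 exon and the Luc7l3 intron are part of protein-coding transcripts. The 8 were picked for size and separation, so this is a description of those events and not a rate over the members.

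Prpf39 and Tial1 had 7 and 9 tested events, and the deepest of each overlapped. A late 5′ splice site of Prpf39 that adds 520 bases had PSI of 0.667, 0.813 and 0.571 in the control libraries and 0.881, 0.570 and 0.711 in the KD-labelled libraries. A 334-base intron of Tial1 had PSI of 0.599, 0.567 and 0.671 in the controls and 0.610, 0.547 and 0.598 in the others. Of the events of Prpf39, 1 lay apart, a 3-base shift of a 3′ splice site with at most 5 skipping counts per library. Of the Tial1 events 2 lay apart, 1 in each direction. A 68-base exon, annotated in 2 nonsense-mediated decay transcripts, had PSI of 0.143, 0.151 and 0.126 in the controls and 0.219, 0.165 and 0.193 in the others. A 51-base extension of a 3′ splice site had 0.134, 0.120 and 0.192 and then 0.085, 0.082 and 0.087.

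Other genes of the spliceosome were taken from lists set by their known place in it, with earlier results of these data known. Of 59 genes 58 were tested, and 7 were called higher and 4 lower, against 15.6% and 15.0% of all genes, with a median log2 fold change of −0.01.

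Of the 8 Sm proteins, which form the ring common to spliceosomal snRNPs, Snrpd3 was called higher with a log2 fold change of 0.32 and Snrpn, a form abundant in neurons, lower with −0.88 (edgeR adjusted p = 6.47e-04), from 82.3 to 84.2 CPM to 40.6 to 52.1 CPM. Of 23 genes of the U4/U6.U5 tri-snRNP 4 were called higher, Lsm4, Lsm6, Snrnp200 and Prpf8, and 2 lower, Snrnp27 and Eftud2. Their log2 fold changes ranged from 0.23 to 0.42 and from −0.37 to −0.21. None of the 8 U11/U12 genes was called in either direction, and of 16 genes of snRNP assembly only Gemin7 was, with a log2 fold change of −0.47. The number of called genes over all these lists ranged from 4 to 17 with 1 library left out, so this count depends on single libraries.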

How the data were processed

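Per gene, the authors deposited the count of reads, not normalized, and rMATS output for 5 kinds of splicing event with inclusion and skipping counts. mRNA was enriched by oligo(dT), sequenced as 150 nt read pairs and aligned to GRCm38 release 90. The submitters' processing notes also name HISAT2 (2.1.0), HTSeq (0.6.1) and Bowtie (1.1.2), without roles. The p-values, FDR and PSI differences of the splicing table are the authors' own comparison and were not used. Deposited effective lengths were used only for PSI.

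Reads on genes numbered 16052529 to 17913064 per library and junction counts 6760349 to 7939931. Counts were tested with edgeR (4.0.16) in R (4.3.3), with TMM, where 3 or more libraries had 10 or more counts of a gene. Event counts were tested with edgeR on 12 columns (both forms of 6 libraries), with a term for every library. Adjusted p under 0.05 was called. Tables were made in Python (3.11.15) with pandas (2.3.3). The gene and event models were each tested on simulated data. Nothing states that each library came from a separate mouse, so p-values measure only the spread between these libraries.

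The members and lists were chosen with earlier results of these data known. Named events were, for each member, the deepest with mean PSI between 0.05 and 0.95, and the 8 with the largest change whose groups did not overlap. The 71-base exon of Luc7l2, the exons of 80 bases in Snrnp70 and 141 bases in Luc7l3, and the separated events of Prpf39 and Tial1 were named after their values were seen. From the other lists, called genes are named, up to 4 in each direction of a list. Some items are not reported here. Gene names came from GENCODE for the Ensembl identifiers. Alternatives were DESeq2 (1.42.0), library size scaling, other filters, limma (3.58.1), a replicate block, PSI without effective lengths, 1 event for each segment and leaving out each library.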

Additional observations from a re-analysis of the deposited data

How the results depend on the processing

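With 1 library left out, the number of members called by expression ranged from 1 to 2, the number of their events called from 0 to 0, and the number of genes of the other lists called from 4 to 17. The other lists gave 7 calls without a filter on low counts and 6 with a replicate block, against 11 in the report. Limma on the log2 ratio gave 0 called events of the members. Signs turned with 1 library left out only in values that were not called, with log2 fold changes ranging from −0.1237 to 0.0387 for Luc7l, from −0.0098 to 0.1459 for Prpf39, from −0.0401 to 0.1897 for Tia1 and from −0.0470 to 0.1341 for Tial1, and PSI changes from −0.0091 to 0.0992 for the Luc7l intron, from −0.0434 to 0.1119 for the Prpf39 5′ splice site, from −0.0145 to 0.0405 for the Tia1 5′ splice site and from −0.0497 to 0.0025 for the Tial1 intron. The cause was not tested. The replicate block left 2 members called, as did DESeq2, library size scaling, both other filters and limma-voom. Over all genes tested, the deviations of same-numbered libraries correlated at 0.049, 0.119 and −0.098. These values cannot show whether equal replicate numbers mark a pairing that acts on some genes only. No paired analysis of the events was possible because the splicing table gives no replicate numbers. Both Luc7l events remained called with a mean of at least 10 or 50 counts and with 1 event for each segment.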
